A study of Mus musculus with 6 samples.

Results

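Amino acid transporter genes were read out in epithelial cells of the mouse gastric corpus, the acid- and pepsinogen-secreting body of the stomach. The members are the genes whose symbols place them in the solute carrier families Slc1, Slc3, Slc6, Slc7, Slc36, Slc38 and Slc43, leaving out Slc7a11. They are 63 of the 21526 symbols in the deposited count table, taken by symbol alone, with no measured value in the rule. One of them, Slc7a6os, is named for lying opposite Slc7a6 and is not a carrier, and Slc43a3 and several Slc6 members carry purine bases, neurotransmitters or osmolytes in place of protein amino acids.

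RNA was sequenced from 3 libraries of Yap-activated gastric cancer and 3 libraries of normal stomach. The first group had the genotype CluCreERT2;R26rtTA;HA-Yap+, with a recombinase driven from Clu, the rtTA activator at Rosa26 and a Yap transgene with an HA tag, and the Normal mice were wild-type (WT). Both genotypes were given tamoxifen (2 mg a day, 5 days) followed by 14 days on doxycycline food, after which EDTA released the corpus epithelium, which was not cultured. CreERT2 is a recombinase that acts once tamoxifen is given, here in cells that express Clu, and rtTA is an activator that needs doxycycline. Since the wild-type controls lack all of these alleles, a CreERT2 or rtTA effect and a Yap effect cannot be told apart. The labels state neither the ages nor whether a library is 1 mouse, and p-values therefore measure the spread between libraries, which may be technical in part.

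Amino acids cross the plasma membrane through carriers that either use the sodium or proton gradient to pump them in or exchange 1 amino acid for another. Many Slc7 proteins are light chains that reach the membrane only when bound to a heavy chain, Slc3a2 (also called CD98 or 4F2hc) or Slc3a1. The stomach epithelium makes large amounts of secreted protein, and carriers supply both that synthesis and growth, while a few members on the lysosome report amino acids to the growth kinase mTORC1.

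The promoters of 4 members are shown: Slc7a8 fell most and Slc6a14 rose most. Slc7a7 and Slc1a4 are shown as the higher genes that hold the ATF4 type of motif. Slc7a7 has several annotated starts, and the promoter with most matches is printed. Sequences are from RefSeq on GRCm38.p6, 250 bases before to 50 after an annotated start, 5′ to 3′ on the gene's strand, at chr14:54781837-54782136 (minus), chr14:54417895-54418194 (minus), chr11:20332664-20332963 (minus) and chrX:21714650-21714949 (plus). Capitals mark any match to 4 motifs searched on both strands: GGAATG (TEAD, the DNA-binding partners of Yap), TGANTCA (AP-1, which reads the same on both strands), TGATGNAA (the joint ATF4 and C/EBP element of the amino acid response) and TNAAGGTCA (estrogen-related receptors).
Slc7a8: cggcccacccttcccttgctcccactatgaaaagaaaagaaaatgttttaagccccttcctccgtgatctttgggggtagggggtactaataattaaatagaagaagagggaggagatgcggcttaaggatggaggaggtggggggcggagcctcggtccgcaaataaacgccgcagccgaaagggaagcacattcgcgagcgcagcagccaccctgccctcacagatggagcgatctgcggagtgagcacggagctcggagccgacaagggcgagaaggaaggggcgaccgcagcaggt
Slc7a7: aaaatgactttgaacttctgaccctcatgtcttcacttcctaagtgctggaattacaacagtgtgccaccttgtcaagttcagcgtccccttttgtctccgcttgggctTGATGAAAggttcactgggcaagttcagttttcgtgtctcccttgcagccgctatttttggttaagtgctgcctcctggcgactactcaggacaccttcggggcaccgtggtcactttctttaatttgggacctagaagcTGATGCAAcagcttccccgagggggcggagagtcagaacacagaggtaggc
Slc1a4: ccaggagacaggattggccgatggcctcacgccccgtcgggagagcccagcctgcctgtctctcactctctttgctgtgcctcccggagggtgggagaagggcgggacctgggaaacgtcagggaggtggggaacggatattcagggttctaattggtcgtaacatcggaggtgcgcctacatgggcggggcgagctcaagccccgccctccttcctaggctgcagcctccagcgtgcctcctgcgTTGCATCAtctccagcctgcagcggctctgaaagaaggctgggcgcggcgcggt
Slc6a14: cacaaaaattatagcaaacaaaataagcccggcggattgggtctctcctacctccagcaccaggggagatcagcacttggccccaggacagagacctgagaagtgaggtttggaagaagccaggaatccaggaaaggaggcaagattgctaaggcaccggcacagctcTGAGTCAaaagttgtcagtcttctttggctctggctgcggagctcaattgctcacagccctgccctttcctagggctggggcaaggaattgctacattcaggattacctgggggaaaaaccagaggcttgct
No capitals in the Slc7a8 sequence means only that these letters are not in this window.

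RefSeq promoters were found for 45 of the 63 members, several with more than 1 start. Of the 10 higher genes with a promoter, 2 held the ATF4 and C/EBP motif, Slc7a7 and Slc1a4, against 0 of 13 lower genes and 4.51% of all 27025 genes with promoters. In Slc7a7 the match TGATGCAA begins at position -1 and TGATGAAA at -141 from the annotated start, and in Slc1a4 the match on the other strand, read here as TTGCATCA, begins at -4. The TEAD motif was in 1 of 10 higher and 3 of 13 lower genes, against 16.6% of all genes, and the AP-1 motif in 2 of 10 and 1 of 13, against 8.97%. The higher gene with TEAD matches was also Slc7a7, in windows not printed above. There CATTCC begins at 41 and GGAATG at -208 from their annotated starts. Among the 10 genes tested but not called, 3 held the TEAD motif, 4 the AP-1 motif and 0 the ATF4 and C/EBP motif. The number of promoters searched differed, at 20 for the 10 higher, 17 for the 13 lower and 13 for the 10 genes not called. All 27025 genes had 32851 promoters. A gene with more starts had more letters searched, so these shares per gene are not on an equal footing. Within a promoter no match overlapped another, and a match is a description of letters, not a binding site.

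Of the 63 members, 44 had enough reads to be tested, and in Yap-activated tissue 14 of these rose and 18 fell (edgeR's quasi-likelihood test, Benjamini-Hochberg adjusted p under 0.05 over all 14600 genes tested). That is 72.7% of tested members, where 59.5% of all genes tested were called, 29.8% higher and 29.7% lower. By over 2-fold, 9 members were higher and 13 lower, against 16.9% and 16.1% of all genes. The groups did not overlap at 35 of the 44, against 67.6% of all genes. The median log2 fold change of the tested members was -0.30, from -6.30 to 5.19, and that of all genes 0.01. Regardless of direction, the median size of the log2 fold change was 1.10 among tested members and 0.64 over all genes.

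**Figure D1:**
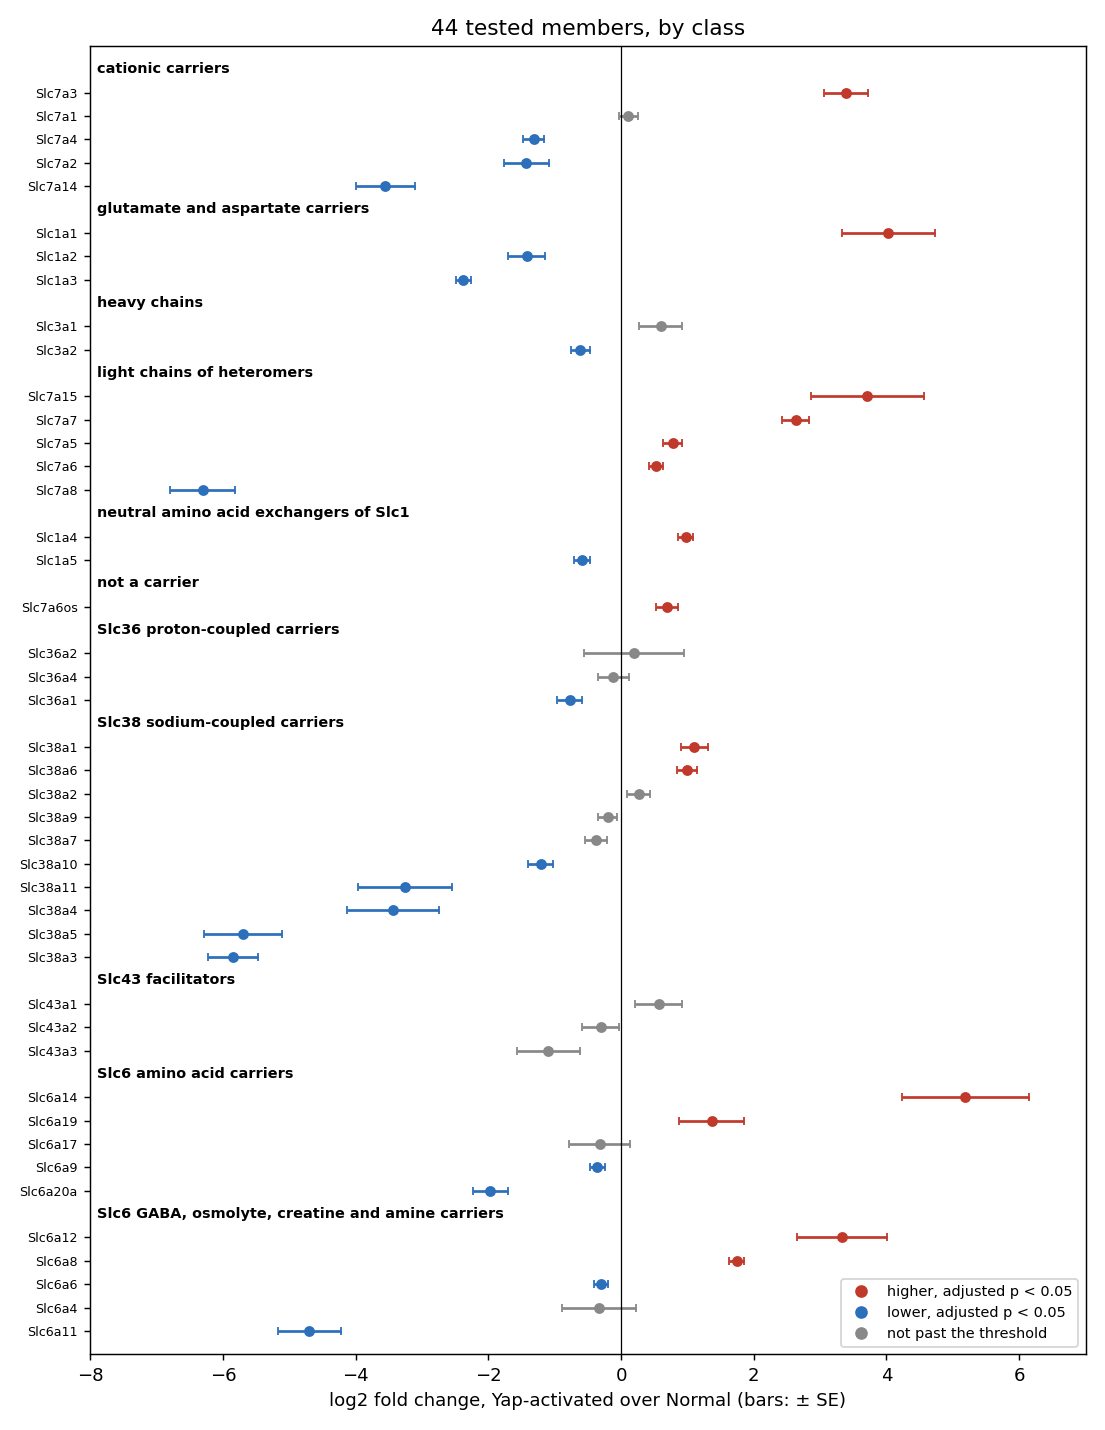
Log2 fold change (x axis, Yap-activated over Normal) with its SE for the 44 tested members, grouped by class. Red points were higher and blue points lower past the threshold, and most classes hold both colours, with Slc7a8 at -6.30 and Slc6a14 at 5.19 as the ends.

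The libraries held 25580734 to 44295619 counts in Yap-activated and 36815754 to 48440033 in Normal tissue, and the members took 0.169% to 0.194% of counts in Yap-activated and 0.142% to 0.170% in Normal libraries. Yap1 averaged 2068 CPM in Yap-activated and 104 CPM in Normal libraries (CPM, counts scaled to library depth, here with TMM). Mitochondrial genes took 7.49% to 13.8% of counts in Yap-activated and 15.1% to 27.6% in Normal libraries. Summed marker levels also differed. The marker counts that follow stand beside 29.8% higher and 29.7% lower over all genes tested. Parietal markers, of which 12 of 14 tested fell and 1 rose, ran from 421 to 488 CPM in Yap-activated and from 25367 to 34638 CPM in Normal libraries. Chief cell markers, 7 of 7 tested lower, ran from 161 to 197 CPM against 90072 to 140572 CPM, with Lipf at 0 in every library. Surface mucous markers, 5 of 8 lower and 2 higher, ran from 3352 to 4129 CPM in Yap-activated and from 48617 to 55920 CPM in Normal libraries. Myeloid markers, 11 of 14 higher and none lower, ran from 453 to 1311 CPM against 201 to 213 CPM, lowest of the Yap-activated libraries in replicate 2. In bulk RNA, fewer cells of a type and less RNA per cell cannot be told apart. The part of these cell types in the members' differences was not tested.

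Of the 9 light chains, 5 were tested, of which 4 rose and 1 fell, where 29.8% of all genes were higher and 29.7% lower. Slc7a8 (LAT2), an exchanger of large and small neutral amino acids that pairs with Slc3a2, had 2.44, 2.00 and 6.42 CPM in Yap-activated libraries, against 257.6, 277 and 343 CPM in Normal libraries. Every Normal library lay far above every Yap-activated one. On the log2 scale Slc7a8 stood at -6.30 (SE 0.49, adjusted p = 6.05e-05 by edgeR), a 79.0-fold lower level, and at -7.04 without Yap-activated replicate 3. Its GENCODE gene on GRCm38 spans 54722209 to 54781946 of chromosome 14, minus strand. The parietal and chief cell marker sums above fell beside it.

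Slc7a5, Slc7a6 and Slc7a7, which also pair with Slc3a2, rose. Slc7a7 (y+LAT1), which exchanges cationic for neutral amino acids, had 11.2, 14.2 and 16.2 CPM in Yap-activated and 2.13, 2.26 and 2.34 CPM in Normal libraries. The groups stood apart, with a log2 fold change of 2.63 (SE 0.20, adjusted p = 2.395e-05, edgeR). Slc7a7 is also known from macrophages. The myeloid marker sum was 1311, 453 and 1264 CPM in Yap-activated libraries and 201 to 213 CPM in Normal libraries. The part of myeloid cells in the rise of Slc7a7 was not tested. Slc7a7 sits 304.4 kb from Slc7a8 on the same strand of chromosome 14, from 54369442 to 54417780, and shares 7.0% of its exon bases with Oxa1l on the opposite strand, which fell by 0.60 on the log2 scale. Slc7a5 (LAT1), the carrier of leucine and other large neutral amino acids, had 49.7, 70.3 and 66.8 CPM in Yap-activated and 33.0, 37.5 and 38.5 CPM in Normal libraries. It rose by 0.78 on the log2 scale (SE 0.15, adjusted p = 0.00239, edgeR), with no overlap between the groups. Slc7a6 (y+LAT2), the close relative of Slc7a7, had 54.3, 52.5 and 51.3 CPM against 39.1, 37.9 and 32.2 CPM in Normal libraries, a log2 fold change of 0.53 (adjusted p = 0.00304, edgeR). Slc7a6os, beside Slc7a6 on the opposite strand and encoding no carrier, had 85.6, 77.1 and 71.6 CPM in Yap-activated and 59.8, 45.5 and 39.6 CPM in Normal libraries, and rose by 0.69.

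The makeup of the light chains differed between the groups. Per kilobase of exon, Slc7a8 made up 1.67%, 1.14% and 3.62% of the summed level of Slc7a5, Slc7a6, Slc7a7 and Slc7a8 in Yap-activated libraries, against 74.0%, 74.4% and 79.1% in Normal libraries. Slc7a5 made up 50.3 ± 4.01% in Yap-activated and 12.8 ± 0.80% in Normal libraries (SD, n = 3 each), Slc7a6 35.0 ± 4.95% and 10.5 ± 2.15%, and Slc7a7 12.5 ± 1.14% and 0.884 ± 0.0599%. The 4 genes together had 33.2 ± 3.54 CPM per kb in Yap-activated and 76.9 ± 8.78 CPM per kb in Normal libraries (SD, n = 3 each). Their shared heavy chain moved less. Slc3a2 had 103, 131 and 108 CPM in Yap-activated and 149, 179 and 196 CPM in Normal libraries, a log2 fold change of -0.61 (SE 0.14, adjusted p = 0.00694, edgeR). The ratio of Slc3a2 to the 4 light chains, both per kb, was 0.976 ± 0.100 in Yap-activated and 0.643 ± 0.0378 in Normal libraries (SD, n = 3 each). Scaled by library totals alone, Slc3a2 did not pass (-0.12, adjusted p = 0.522).

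**Figure D2:**
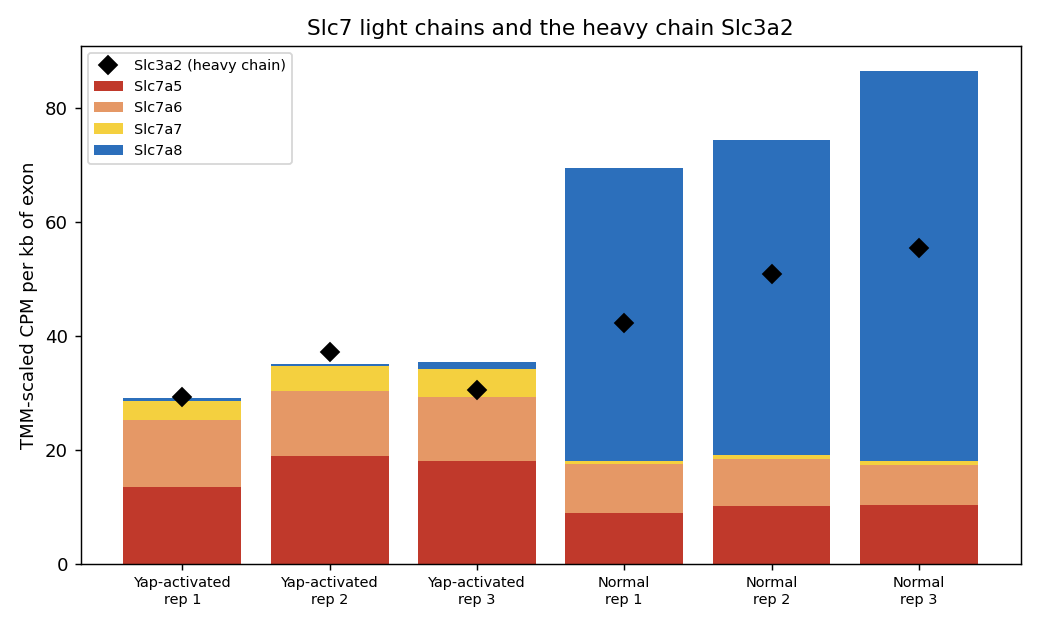
Stacked TMM-scaled CPM per kb of exon for 4 light chains in each library, with the heavy chain Slc3a2 as diamonds. Slc7a8, the top segment, fills 1.14% to 3.62% of the Yap-activated bars and 74.0% to 79.1% of the Normal bars.

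Slc3a1, the heavy chain of the kidney and gut cystine carrier, stayed low, at 1.22, 1.34 and 0.781 CPM in Yap-activated and 0.699, 0.736 and 0.759 CPM in Normal libraries (log2 fold change 0.60, adjusted p = 0.152, edgeR), and 26.5% of its exon bases overlap Prepl on the opposite strand. Its light chain Slc7a9 was too rare to test, with 9, 13 and 6 counts in Yap-activated libraries and 0 in each Normal library. Against a floor of 3 counts over the Normal group it was at least 8.06-fold higher, a limit that covers counting error only. Slc7a15 had 8, 15 and 12 counts in Yap-activated libraries, against 2, 0 and 0 counts in Normal libraries, a ratio of 15.1 with an exact 95% interval from 3.88 to 129.6. The fitted change on the log2 scale was 3.71 (SE 0.85, adjusted p = 0.00653, edgeR), 6.51 without Normal replicate 1 and 3.10 without Normal replicate 2. Slc7a10 had 4 counts in all 6 libraries together, and Slc7a12 and Slc7a13 had 0.

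Cationic carriers, which bring in arginine and lysine, split by gene. Slc7a1 (CAT1), the widely expressed member, had 89.7, 77.0 and 62.9 CPM in Yap-activated and 62.7, 76.8 and 72.9 CPM in Normal libraries, and the groups overlapped (log2 fold change 0.11, adjusted p = 0.539, edgeR). Slc7a3 (CAT3) had 8.20, 5.49 and 5.47 CPM against 0.670, 0.404 and 0.759 CPM in Normal libraries. All Yap-activated libraries stood above all Normal ones, with a log2 fold change of 3.39 (SE 0.34, adjusted p = 9.24e-05, edgeR). Slc7a2 (CAT2) had 2.81, 5.56 and 7.74 CPM in Yap-activated and 12.1, 16.2 and 15.3 CPM in Normal libraries, and fell by 1.43 on the log2 scale (adjusted p = 0.00808, edgeR), though not past the threshold with library totals alone (-0.93, adjusted p = 0.0502). Slc7a4, a family member with no established substrate, had 9.42, 7.61 and 10.6 CPM against 22.8, 25.2 and 21 CPM in Normal libraries and fell by 1.32, and 13.3% of its exon bases overlap P2rx6 on the opposite strand, which fell by 1.76. Slc7a14, a lysosomal member, had 2, 8 and 5 counts in Yap-activated and 39, 68 and 49 counts in Normal libraries, a log2 fold change of -3.55 (SE 0.45, adjusted p = 3.11e-04, edgeR). Per kb of exon, Slc7a3 was at 1.69 ± 0.416 and Slc7a1 at 6.64 ± 1.16 CPM in Yap-activated libraries (SD, n = 3).

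Glutamate carriers of the Slc1 family also moved apart. Slc1a3 (GLAST) had 10.9, 9.52 and 9.0 CPM in Yap-activated and 51.0, 51.5 and 50.3 CPM in Normal libraries. Both groups were tight, at -2.38 on the log2 scale (SE 0.11, adjusted p = 2.99e-06, edgeR), a 5.20-fold lower level. Slc1a2 (GLT-1) had 7.63, 4.51 and 7.72 CPM against 12.6, 18.8 and 21.8 CPM in Normal libraries, and fell by 1.42 (adjusted p = 0.00287, edgeR). Slc1a1 (EAAT3), which also carries cysteine, had 141, 34 and 127 counts in Yap-activated libraries, against 5, 6 and 6 counts in Normal libraries. The groups did not overlap, with a value of 4.03 on the log2 scale (SE 0.70, adjusted p = 0.00170, edgeR), and 3.32 without Yap-activated replicate 1. Reads of 4430402I18Rik, which shares 31.9% of the exon bases of Slc1a1 on the opposite strand, fell by 1.21 on the log2 scale. Slc1a6 and Slc1a7 had at most 5 counts in any library.

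The neutral exchangers of Slc1 were among the more abundant members. Slc1a4 (ASCT1), which exchanges alanine, serine and cysteine, had 35.5, 32.2 and 32.5 CPM in Yap-activated and 18.5, 16.7 and 15.8 CPM in Normal libraries, a rise of 0.97 on the log2 scale (adjusted p = 1.87e-04, edgeR). Slc1a5 (ASCT2), a glutamine exchanger often high in tumours, had 59.95, 75.8 and 72.3 CPM against 103, 116 and 93.4 CPM in Normal libraries, and fell by 0.59 (adjusted p = 0.00493, edgeR). Its highest Yap-activated library lay below its lowest Normal one. With library totals alone the fall of Slc1a5 was not past the threshold (-0.09, adjusted p = 0.585).

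Of the 11 Slc38 genes, 10 were tested, and 2 of these rose and 5 fell, where 29.8% of all genes were higher and 29.7% lower. The system N carriers, which move glutamine, histidine and asparagine in either direction, fell to near 0. Slc38a3 (SNAT3) had 0.237, 0.716 and 0.279 CPM in Yap-activated libraries, against 24.1, 22.7 and 25.5 CPM in Normal libraries. It stood at -5.85 on the log2 scale (SE 0.37, adjusted p = 1.16e-05, edgeR), a 57.6-fold lower level, and -6.51 without Yap-activated replicate 2. Slc38a5 (SNAT5) had 6, 2 and 2 counts in Yap-activated and 110, 230 and 156 counts in Normal libraries, a log2 fold change of -5.69 (SE 0.58, adjusted p = 1.08e-04, edgeR) and -6.65 without Yap-activated replicate 1.

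System A carriers, which pump small neutral amino acids in with sodium, lie in a cluster on chromosome 15 but did not move as one. Slc38a1 (SNAT1) had 49.7, 49.1 and 55.7 CPM in Yap-activated and 20.6, 32.2 and 19.0 CPM in Normal libraries, and rose by 1.10 (adjusted p = 0.00210, edgeR). Slc38a2 (SNAT2), 44.5 kb away and induced by amino acid shortage, was the most abundant member by CPM in Yap-activated tissue, at 281, 419 and 293 CPM in Yap-activated and 249.9, 292 and 282 CPM in Normal libraries. The groups overlapped, with a log2 fold change of 0.27 (SE 0.17, adjusted p = 0.216, edgeR), though with library totals alone it was 0.76 and passed (adjusted p = 0.00788). Slc38a4 (SNAT4), 295.1 kb beyond Slc38a2, had 2, 19 and 5 counts in Yap-activated and 71, 60 and 106 counts in Normal libraries. Slc38a4 stood at -3.43 on the log2 scale (SE 0.69, adjusted p = 0.00355, edgeR) and -4.73 without Yap-activated replicate 2.

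Among the other Slc38 genes, Slc38a10 was abundant, at 57.4, 93.1 and 90.7 CPM in Yap-activated and 164.5, 196 and 199 CPM in Normal libraries, and fell by 1.21 (adjusted p = 0.00108, edgeR). Slc38a6 had 22.5, 18.3 and 22.3 CPM against 12, 9.46 and 10.3 CPM in Normal libraries, and rose by 0.99 (adjusted p = 8.09e-04, edgeR). Neither gene's groups overlapped. Slc38a11 had 4, 0 and 7 counts in Yap-activated and 38, 32 and 23 counts in Normal libraries, a log2 fold change of -3.26 (SE 0.70, adjusted p = 0.00486, edgeR). Slc38a8 had 3 counts in all.

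Of 5 members known from lysosomes, Slc36a1 and Slc7a14, given above, fell, and Slc38a7, Slc38a9 and Slc36a4 did not pass. Over all genes tested, 29.8% were higher and 29.7% lower. Slc38a9, the lysosomal arginine sensor of mTORC1, had 26.9, 22.9 and 33.6 CPM in Yap-activated and 33.9, 30.6 and 31.6 CPM in Normal libraries, with overlap (log2 fold change -0.20, adjusted p = 0.272, edgeR), and passed without Yap-activated replicate 3 (-0.36, adjusted p = 0.0353). Slc38a7, a lysosomal glutamine exporter, had 16.7, 24.8 and 24.5 CPM against 25.8, 28.9 and 30.9 CPM in Normal libraries (log2 fold change -0.37, adjusted p = 0.0890, edgeR). With library totals alone both were above 0, at 0.29 for Slc38a9 and 0.12 for Slc38a7, and neither passed. Slc36a1 (PAT1), a proton-coupled exporter of small neutral amino acids on lysosomes, had 24.9, 34.3 and 40.3 CPM in Yap-activated and 47.2, 59.3 and 64.0 CPM in Normal libraries. It fell by 0.78 (adjusted p = 0.00927, edgeR), but not past the threshold with library totals alone (-0.28, adjusted p = 0.277). Slc36a4 had 12.5, 7.30 and 13.1 CPM against 10.6, 12.4 and 12.6 CPM in Normal libraries, with overlap (log2 fold change -0.11, adjusted p = 0.690, edgeR). Slc36a2 had 2 to 18 counts in Yap-activated and 7 to 13 counts in Normal libraries and Slc36a3 at most 6.

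No Slc43 gene passed in edgeR with all libraries. Slc43a2 (LAT4), a facilitator of large neutral amino acids, had 13.0, 13.3 and 26.4 CPM in Yap-activated and 19.9, 25.2 and 20.4 CPM in Normal libraries (log2 fold change -0.31, adjusted p = 0.382, edgeR). Replicate 3 stood above the other Yap-activated libraries and above every Normal one, and without it Slc43a2 fell (-0.72, adjusted p = 0.00524). Slc43a3, a purine base carrier, had 4.78, 2.43 and 10.2 CPM against 15.1, 10.6 and 11.6 CPM in Normal libraries, and was likewise at -1.09 with all libraries (adjusted p = 0.0846, edgeR) and at -1.79 without Yap-activated replicate 3 (adjusted p = 0.00316). By DESeq2 with all libraries it passed at the same -1.09 (adjusted p = 0.0256). Endothelial markers summed to 68.7, 47.0 and 85.6 CPM in Yap-activated libraries and ran from 217 to 236 CPM in Normal libraries. Of 9 tested, 8 were lower and none higher, where 29.8% of all genes were higher and 29.7% lower. The order of the Yap-activated libraries was the same as for Slc43a3, and the part of endothelial cells in Slc43a3 was not tested. Slc43a1 (LAT3) had 53, 48 and 113 counts in Yap-activated and 43, 57 and 25 counts in Normal libraries (log2 fold change 0.57, adjusted p = 0.205, edgeR).

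The Slc6 family includes the largest rise. Slc6a14 (ATB0,+), a sodium- and chloride-coupled pump for nearly all neutral and cationic amino acids, had 25.2, 7.08 and 5.73 CPM in Yap-activated libraries, against 0.0874, 0.760 and 0.126 CPM in Normal libraries. Replicate 1 stood highest among the Yap-activated and replicate 2 among the Normal libraries, and the groups did not overlap. Squamous forestomach markers summed to 89.3, 83.7 and 58.1 CPM in Yap-activated and to 7.49, 50.8 and 6.77 CPM in Normal libraries. In each group their sum was highest in the same library as Slc6a14. Of 11 tested, 1 rose and 1 fell, where 29.8% of all genes were higher and 29.7% lower. The part of these markers' cells in the difference of Slc6a14 was not tested. On the log2 scale Slc6a14 stood at 5.19 (SE 0.95, adjusted p = 0.00312 by edgeR), at 4.24 without Yap-activated replicate 1 and at 6.84 without Normal replicate 2. The gene lies on the plus strand of chromosome X from 21714896 to 21742355.

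Slc6a8, the creatine transporter, had 183, 167 and 158 CPM in Yap-activated and 49.6, 47.2 and 55.1 CPM in Normal libraries, and its groups stood far apart for so abundant a gene. It rose by 1.74 on the log2 scale (SE 0.11, adjusted p = 9.88e-06, edgeR), a 3.35-fold higher level. Slc6a6, the taurine transporter, had 180.4, 167 and 199 CPM against 221, 235 and 217 CPM in Normal libraries. Its log2 fold change of -0.30 (SE 0.11, adjusted p = 0.0456, edgeR) was lost without Yap-activated replicate 1 (0.0876) or 2 (0.123), without Normal replicate 1 (0.0763), 2 (0.145) or 3 (0.0790), with no filter (0.0567), DESeq2 size factors (0.0507) or upper quartile scaling (0.0904), and was 0.19 with library totals alone. Slc6a12, the betaine and GABA carrier, had 23, 11 and 26 counts in Yap-activated libraries, against 1, 1 and 3 counts in Normal libraries. It rose by 3.33 (SE 0.68, adjusted p = 0.00372, edgeR), and by 4.10 without Normal replicate 3. The GABA carrier Slc6a11 (GAT3) had 2, 7 and 6 counts in Yap-activated and 149, 84 and 99 counts in Normal libraries, a log2 fold change of -4.70 (SE 0.47, adjusted p = 1.02e-04, edgeR).

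The proline carrier Slc6a20a had 2.03, 3.77 and 2.31 CPM in Yap-activated and 9.64, 11.4 and 10.7 CPM in Normal libraries, and fell by 1.97 (adjusted p = 4.31e-04, edgeR). Its paralog Slc6a20b, 2.2 kb away, had 3 to 8 counts in Yap-activated and 4 to 8 counts in Normal libraries, and reads shared between the copies could be split either way. Slc6a9 (GLYT1), a glycine carrier, had 18.8, 22.4 and 20.9 CPM against 26.3, 27.7 and 25.6 CPM in Normal libraries. It fell by 0.36 (adjusted p = 0.0238, edgeR), a call lost without Yap-activated replicate 1 (0.0766) or Normal replicate 1 (0.0535), 2 (0.0952) or 3 (0.0531), and was at 0.14 with library totals alone, and 27.8% of its exon bases overlap Ccdc24 on the opposite strand. Slc6a19 (B0AT1), the main neutral carrier of the small intestine, had 12, 9 and 14 counts in Yap-activated and 4, 6 and 2 counts in Normal libraries. It rose by 1.37 (adjusted p = 0.0427, edgeR), but not without Yap-activated replicate 1 (0.119) or Normal replicate 1 (0.0999), 2 (0.0773) or 3 (0.151), nor with no filter (0.0759), by DESeq2 (0.187) or by voom (0.0519). Slc6a17 and the serotonin carrier Slc6a4 did not pass (log2 fold changes -0.32 and -0.33, adjusted p = 0.567 and 0.6295, edgeR).

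The proline carrier Slc6a7 was too rare for the filter, with 0, 1 and 0 counts in Yap-activated libraries, against 10, 18 and 14 counts in Normal libraries. Scaled to the libraries, its Normal level was 48.7 times the Yap-activated level (exact 95% interval 8.27 to 1967). Of the 19 members not tested, 4 had no count in any library: Slc6a18, Slc6a21, Slc7a12 and Slc7a13.

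**Figure D3:**
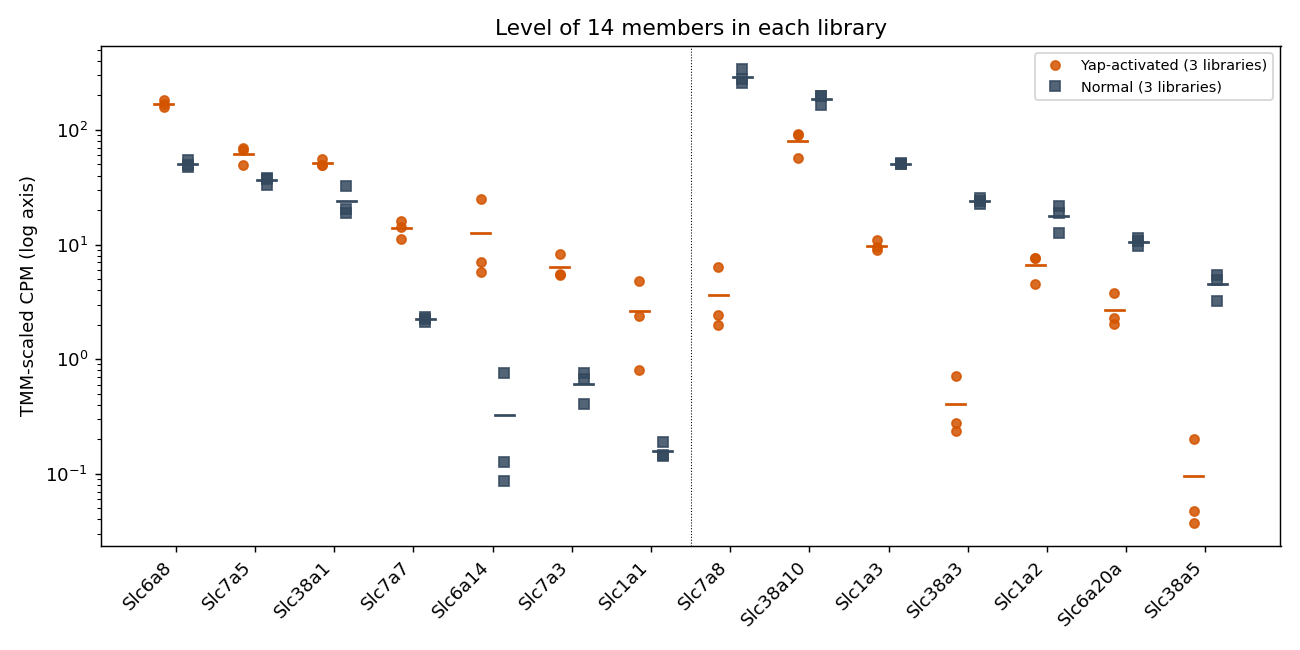
TMM-scaled CPM on a log axis for 14 members in each Yap-activated (orange) and Normal (blue-grey) library, with the group means as bars. Left of the dotted line are 7 genes that rose in Yap-activated tissue and right of it 7 that fell, with no overlap between groups.

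The order of levels per length changed with these shifts. In Yap-activated libraries the highest carriers were Slc38a2 at 37.5 ± 8.68, Slc6a8 at 32.5 ± 2.47, Slc3a2 at 32.4 ± 4.23, Slc6a6 at 21.6 ± 1.91 and Slc7a5 at 16.8 ± 2.97 CPM per kb of exon (SD, n = 3). Slc38a2 stood above Slc3a2 in each of these libraries, while the place of Slc6a8 beside them varied from library to library. In Normal libraries they were Slc7a8 at 58.4 ± 8.92, Slc3a2 at 49.5 ± 6.68, Slc38a2 at 31.1 ± 2.5, Slc38a10 at 29.0 ± 2.97 and Slc6a6 at 26.6 ± 1.10 CPM per kb. There Slc7a8 stood above Slc3a2 in every library, and Slc38a2 above Slc38a10. Of 43 tested carriers, Slc7a8 held rank 25 in Yap-activated and rank 1 in Normal tissue, while Slc6a8 held rank 2 in Yap-activated and rank 9 in Normal tissue. Summed over all 63 members, the level was 1540 ± 81.4 CPM in Yap-activated and 1903 ± 113 CPM in Normal libraries (SD, n = 3 each), and Slc7a8 alone made up 0.236 ± 0.159% and 15.3 ± 1.75% of it. Without Slc7a6os, which is not a carrier, the sums were 1462 ± 85.4 and 1854 ± 123 CPM. The lower sum rests on TMM scaling. As a share of unscaled counts, the members took 0.169% to 0.194% in Yap-activated and 0.142% to 0.170% in Normal libraries.

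**Figure D4:**
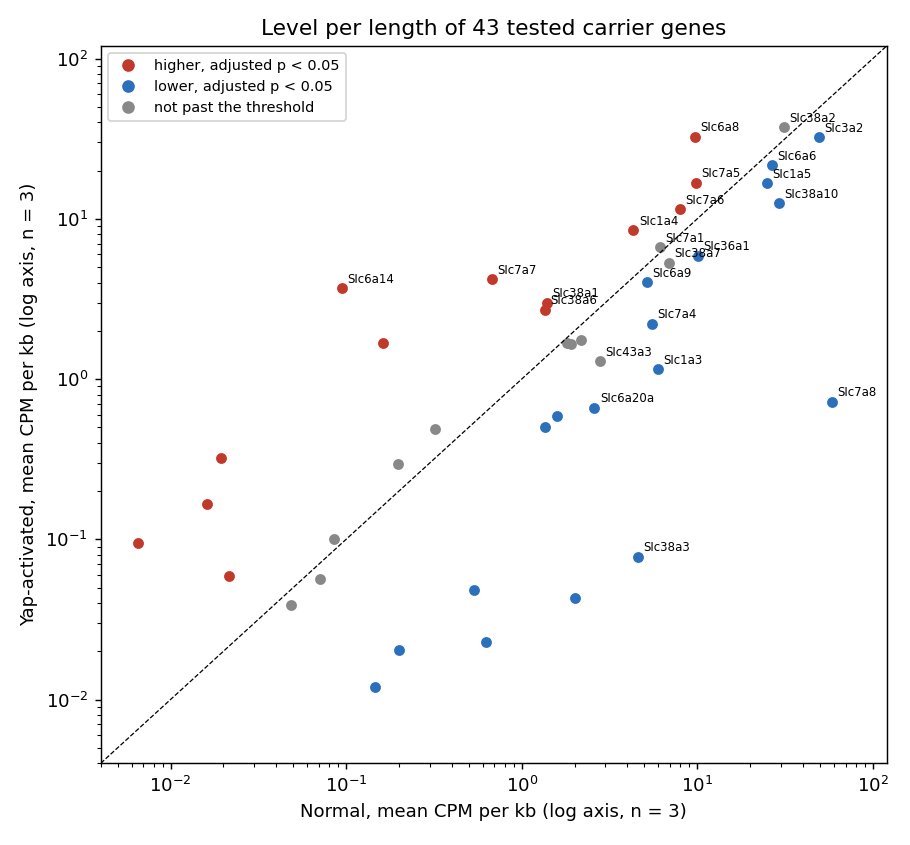
Mean level per length in Yap-activated (y axis) against Normal tissue (x axis) for 43 tested carriers, both on log axes, with the dashed line where they are equal. Slc7a8, at 0.723 in Yap-activated and 58.4 CPM per kb in Normal tissue, lies farthest below the line among abundant members, and Slc6a8 lies above it.

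Genes that act with the carriers were read from the same fit, where 29.8% of all genes tested were higher and 29.7% lower. Of 20 genes of the integrated stress response, whose factor ATF4 drives several carriers when amino acids run short, 19 were tested, and 12 were higher and 3 lower. Atf3, a stress-induced factor, had 97.5, 104 and 161 CPM in Yap-activated and 8.71, 8.36 and 6.83 CPM in Normal libraries, and Nupr1, the most abundant of the list, averaged 563 CPM in Yap-activated and 55.4 CPM in Normal libraries. Gdf15 rose by 4.61 and Ppp1r15a by 1.73 on the log2 scale. Atf4 itself rose by 0.41 (adjusted p = 0.0370, edgeR). Asns, the asparagine synthetase and a target of ATF4, went the other way, with 65.9, 72.4 and 66.7 CPM against 141, 164.5 and 154 CPM in Normal libraries (log2 fold change -1.16, adjusted p = 5.00e-05, edgeR). Gdf15 is also known as a p53 target and Atf3 as an immediate early gene.

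In the lists of amino acid metabolism inside the cell, more genes fell than rose, where 29.8% of all genes tested were higher and 29.7% lower. Of 15 tested genes of branched-chain amino acid breakdown, 14 fell and none rose, with a median log2 fold change of -2.94. Acadsb averaged 25.0 CPM in Yap-activated and 421 CPM in Normal libraries, and Bckdhb, a subunit of the branched-chain ketoacid dehydrogenase, 10.1 and 128 CPM. Pccb, of propionate breakdown, was at -2.99 and Hibch, of valine breakdown, at -2.77 on the log2 scale. Of 14 tested glutamine and glutamate genes, 5 rose and 7 fell. Among the lower ones, the alanine transaminase Gpt2 had 8.07, 9.26 and 10.2 CPM against 305, 350.0 and 422 CPM in Normal libraries, and Glul, glutamine synthetase, averaged 189 CPM in Yap-activated and 889.6 CPM in Normal libraries. Gpt, the other alanine transaminase, was at -3.71 and Oat, which makes glutamate from ornithine, at -1.92 on the log2 scale. Of 14 genes listed for serine, glycine, proline and asparagine synthesis, 4 rose and 8 fell. The list also holds enzymes of cysteine synthesis and folate metabolism. Pycr1, of proline synthesis, was at -3.56, Cth, of cysteine synthesis, at -2.88 and Asns at -1.16. The parietal cell, rich in mitochondria, had its marker sum lower beside these lists, and its part in them was not tested.

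The counts in the next lists stand beside 29.8% higher and 29.7% lower over all genes tested. Of 19 tested cytosolic aminoacyl-tRNA synthetases, 1 rose and 10 fell, with Yars at -1.25, Farsb at -0.98 and Tars at -0.73. Nars, the most abundant, at 0.26 did not pass (adjusted p = 0.0602, edgeR). Of 34 tested genes of amino acid sensing by mTORC1, 6 rose and 15 fell. Mtor, the kinase, averaged 37.9 CPM in Yap-activated and 143 CPM in Normal libraries (log2 fold change -1.92), and Deptor, its inhibitor, 38.4 and 182 CPM (-2.25). Lamtor4, of the lysosomal scaffold for mTORC1, was at -1.12. Of 20 tested carriers of other families, listed for amino acids and peptides but with monoamine carriers among them, 2 rose and 8 fell. The mitochondrial aspartate and glutamate carrier Slc25a12 was at -2.13 and the ornithine carrier Slc25a15 at -1.34. Slc18a2, the vesicular monoamine carrier of histamine-storing endocrine cells, was at -3.26, and enteroendocrine markers, 10 of 14 lower and 1 higher, ran from 56.2 to 68.8 CPM in Yap-activated and from 623 to 848 CPM in Normal libraries. Of 14 tested partners and modifiers of the carriers, 4 rose and 5 fell, near the shares over all genes. Cd44, a hyaluronan receptor that binds the light chain Slc7a11, rose by 4.92 and Lgals3, a galectin that binds the heavy chain Slc3a2, by 4.90, while Clstn1, a calsyntenin, fell by 1.91.

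**Figure D5:**
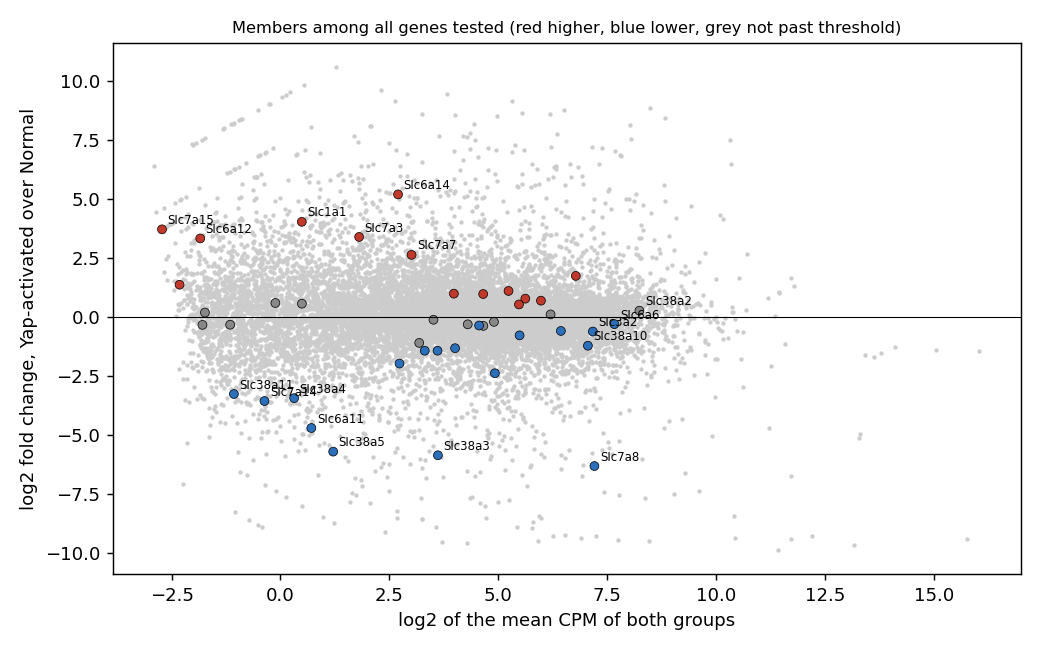
Log2 fold change (y axis) against the log2 mean CPM of both groups (x axis) for all 14600 genes tested in grey, with the 44 tested members on top. The members spread over the cloud on both sides of 0, from -6.30 for Slc7a8 to 5.19 for Slc6a14.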

How the data were processed

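The deposited data are raw counts by symbol, whole numbers in a single table of 6 columns. The submitters' processing notes name STAR 2.4.2a and DESeq2, and mm10 and GRCm38 as builds. Per the labels' protocols, a stranded mRNA kit and 50 bp paired reads were used. No source used here gives the counting program, strand setting or annotation, and reads of overlapping genes or close paralogs can sit in a member's count.

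edgeR 4.0.16 was run under R 4.3.3. Genes passed filterByExpr (minimum count 10), libraries were scaled by TMM, and the robust quasi-likelihood F-test compared Yap-activated with Normal over all 6 libraries, with p-values adjusted by Benjamini-Hochberg over all 14600 genes tested and a threshold of 0.05. Standard errors were taken as the size of the log2 value over the root of its F statistic. Levels are TMM-scaled CPM, also divided by the exon length in GENCODE mouse release 21 to compare genes. Intervals and floors cover counting error only. The fit was tested on simulated counts.

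The rule for the members uses symbols alone, but these families and the gene lists were chosen with earlier results of these data known. Library values are given for the 30 members that were tested and whose higher group averaged 5 CPM or more, with counts for others. The SE is printed for called members with a log2 fold change of at least 2 in size and the 5 highest per length. In each gene list the 3 smallest p and the highest mean are named. Atf4 was named after its values were seen. The values of 1 member are not reported here. Same-numbered libraries were treated as unpaired, since the labels state no pairing. Their deviations from group means correlated at 0.040, 0.0027 and 0.069, values that cannot decide it with 3 libraries per group. Replicates differed by far more than counting noise. Alternatives were other scalings, filters, limma 3.58.1 voom, DESeq2 1.42.0, non-robust dispersions, a replicate block and leaving out each library.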

Additional observations from a re-analysis of the deposited data

How the results depend on the processing

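Leaving out 1 library gave 13 to 14 higher and 16 to 23 lower members, and 8 to 10 higher and 13 to 16 lower by over 2-fold, with 3530 to 4304 higher and 3674 to 4273 lower among all genes. With library totals alone the median of all genes stood at 0.50, against 0.01 with TMM. Of all calls, 76.6% were then higher (50.0% with TMM). Of 14600 genes tested, 7522 were higher and 2299 lower (4345 and 4337 with TMM). There 18 members were higher and 12 lower, 16 were higher by over 2-fold (9 with TMM), and 51 genes of the pathway lists were higher (33 with TMM). Members whose sign turned there were Slc6a6 (0.19), Slc6a9 (0.14), Slc36a4 (0.37), Slc38a7 (0.12), Slc38a9 (0.29), Slc43a2 (0.19), Slc6a17 (0.16) and Slc6a4 (0.17), and of these Slc6a6 and Slc6a9 were called with TMM. Slc38a2, Slc3a1, Slc43a1 and Slc7a1 were added there as higher, and Slc1a5, Slc36a1, Slc3a2 and Slc7a2 were lost. Requiring 1 CPM in 3 libraries left 34 members tested and 5 higher by over 2-fold. Over all genes, calls by over 2-fold were counted only in the edgeR fit described above, at 16.9% higher and 16.1% lower. The over 2-fold counts of members at other settings therefore have no background beside them, and nothing particular to the members can be read from them. Members not past the threshold that turned sign elsewhere were Slc36a2 with voom (-0.29), with the replicate block (-0.030), without Yap-activated replicate 1 (-0.52) and without Normal replicate 2 (-0.08), Slc36a4 without Yap-activated replicate 2 (0.10), Slc6a4 without Normal replicate 1 (0.40) and Slc7a1 without Yap-activated replicate 1 (-0.0053). Leaving out each library gave -0.52 to 0.70 for Slc36a2, -0.26 to 0.10 for Slc36a4, -0.61 to 0.40 for Slc6a4 and -0.0053 to 0.24 for Slc7a1. With a replicate block, 13 members were higher and 19 lower, and 30 of the 32 calls were kept, without Slc6a19 and Slc6a6 and with Slc38a7 (-0.39) and Slc43a3 (-1.31) added; 4239 genes were higher and 4322 lower. Without a filter, Slc7a9 was higher and Slc6a7 lower. Library totals alone leave out the TMM factors, which were 0.802 to 0.869 in Normal and 1.15 to 1.21 in Yap-activated libraries. The cause of the difference in these factors, and of the shifts at other settings, was not tested. Depth limits the members with few counts, 19 of which could not be tested.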
